A study of Mus musculus with 4 samples.

Results

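Polycomb repressive complex 2 (PRC2) was examined through the RNA of its 10 named subunits and accessory factors, Ezh1, Ezh2, Eed, Suz12, Rbbp4, Rbbp7, Jarid2, Aebp2, Mtf2 and Phf19. They are 10 of the 32285 genes in the count matrices and were read in 4 single-cell libraries, 1 for each condition. They were chosen by name, with earlier results of these data known. C3H10T1/2 cells, a mouse mesenchymal progenitor line (clone 8), carried a lentiviral human H3C2 cDNA (histone H3.1 with C-terminal HA and FLAG tags, EF1 promoter) that was either wild type (H3WT) or had arginine 26 replaced by cysteine (H3R26C), and each puromycin-selected population received vehicle (DMSO) or 3 µM of the DNA methyltransferase inhibitor 5-azacytidine (5-Aza) for 24 h. The 5-Aza cultures were collected on day 28, and the collection day of the DMSO cultures is not stated in the sources used here. All 4 populations still carried their own H3 genes, and the transgene itself, being human, was not measured against the mouse reference. The design asks which populations of cells arise after 5-Aza with the mutant histone, in a study of histone mutants and PRC2.

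PRC2 places methyl groups on lysine 27 of histone H3, a mark of silenced developmental genes. Ezh2 or its paralog Ezh1 is the methyltransferase, Eed reads the mark and activates the enzyme, Suz12 is the scaffold, and the histone-binding proteins Rbbp4 and Rbbp7 complete the core. Jarid2 and Aebp2 belong to one form of the complex, and Mtf2 and Phf19, which bind CpG-rich DNA and modified H3, belong to the other. In dividing cells Ezh2 is known as a target of the E2F factors and Ezh1 is the form associated with resting cells, and in muscle precursors PRC2 holds muscle genes silent until differentiation.

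The promoters of the 3 members that hold an E2F motif are shown because Ezh2, Suz12 and Phf19 had higher RNA in cycling cells, and Ezh1 is shown as the paralog whose RNA was lower there. Each runs 5′ to 3′ from 250 bases before to 50 bases after the RefSeq start site on build GRCm38.p6, and capitals mark the motif match. They lie at chr6:47594981-47595280 on the minus strand for Ezh2, at chr11:79992856-79993155 on the plus strand for Suz12, at chr2:34913927-34914226 on the minus strand for Phf19 and at chr11:101226414-101226713 on the minus strand for Ezh1.
Ezh2: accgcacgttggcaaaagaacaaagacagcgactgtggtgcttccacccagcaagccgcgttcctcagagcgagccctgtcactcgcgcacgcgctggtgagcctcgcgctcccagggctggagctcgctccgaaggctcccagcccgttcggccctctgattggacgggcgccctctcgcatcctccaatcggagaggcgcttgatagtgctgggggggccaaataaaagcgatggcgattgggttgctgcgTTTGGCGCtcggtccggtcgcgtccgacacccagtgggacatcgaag
Suz12: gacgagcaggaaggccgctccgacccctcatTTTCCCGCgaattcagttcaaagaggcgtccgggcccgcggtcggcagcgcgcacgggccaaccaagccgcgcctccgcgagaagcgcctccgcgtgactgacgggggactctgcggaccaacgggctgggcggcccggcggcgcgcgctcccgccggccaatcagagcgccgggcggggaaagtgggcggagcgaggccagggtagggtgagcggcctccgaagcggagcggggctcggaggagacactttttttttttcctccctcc
Phf19: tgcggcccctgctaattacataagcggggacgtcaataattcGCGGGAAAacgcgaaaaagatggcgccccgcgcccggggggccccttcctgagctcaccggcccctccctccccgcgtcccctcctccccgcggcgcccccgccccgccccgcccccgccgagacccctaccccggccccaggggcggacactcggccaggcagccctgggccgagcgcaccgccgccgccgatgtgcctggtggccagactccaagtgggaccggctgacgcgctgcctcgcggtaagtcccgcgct
Ezh1: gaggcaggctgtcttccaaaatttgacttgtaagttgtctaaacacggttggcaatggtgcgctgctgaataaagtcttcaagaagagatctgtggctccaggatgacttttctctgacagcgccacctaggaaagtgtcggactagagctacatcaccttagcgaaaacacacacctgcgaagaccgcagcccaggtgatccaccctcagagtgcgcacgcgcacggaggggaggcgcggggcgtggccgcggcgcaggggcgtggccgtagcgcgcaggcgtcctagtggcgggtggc
The letters searched on both strands were TTTCCCGC, TTTGGCGC, TTTCGCGC and TTTGCCGC, and 744 of 32851 promoters of this length (2.26%) held at least 1 of them. In Ezh2 the match was TTTGGCGC, 3 bases after the start site. In Suz12 it was TTTCCCGC, 219 bases before the start site, and in Phf19 the same motif was read on the other strand 208 bases before the start site. The other 11 of the 14 RefSeq promoters of the 10 members held none. Those of Eed, Rbbp4 and Rbbp7 were among them, and the RNA of these genes was also higher in cycling cells of every library. The cell-cycle element searched as TTTGAA or TTCGAA, present in 19.2% of all promoters, was found in promoters of Eed, Suz12, Aebp2 and Mtf2. These matches describe the letters in the window and say nothing of binding.

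All 10 members are protein-coding genes on GRCm38 in the GENCODE M21 annotation. Ezh1 lies at chr11:101191115-101226463 and Suz12 at chr11:79993106-80034123, on opposite strands of the same chromosome. Ezh2 lies at chr6:47530139-47595341 and Aebp2 at chr6:140622663-140678472. The others are Eed at chr7:89954654-89980983, Rbbp4 at chr4:129307100-129335370, Rbbp7 at chrX:162760402-162779092, Jarid2 at chr13:44729474-44921643, Mtf2 at chr5:108065674-108109004 and Phf19 at chr2:34893757-34914026.

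Barcodes with at least 5000 UMIs (unique molecular identifiers, each counted as 1 RNA molecule), at least 1500 genes and at most 20% mitochondrial UMIs were kept, which left 3710 of 6239 in H3WT with DMSO, 5993 of 15002 in H3WT with 5-Aza, 4727 of 6540 in H3R26C with DMSO and 7619 of 12110 in H3R26C with 5-Aza. The kept cells held 84060490 to 110712425 UMIs a library, with a median per cell of 22420, 13149, 16598 and 13123 in that order. Levels are counts per 1000000 UMIs (CPM) in the summed cells, the intervals are exact 95% Poisson intervals, and ratios carry the matching conditional binomial interval. With 1 library for each condition there is no replicate error and no test between conditions: the intervals cover counting error only. A gene was called between 2 sums at a ratio of at least 1.5 in either direction where their mean reached 5 CPM, and Phf19 was short of that level in all but 1 comparison. Between 54 and 228 barcodes were shared by each pair of libraries (24 to 58 among kept cells). In all kept cells the summed level of 8 progenitor markers was 10379 to 11592 CPM, and blood and endothelial markers summed to no more than 15.9 and 11.1 CPM in any cell set.

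Cycling cells are those with 2 or more UMIs over Mki67, Top2a, Cdk1, Ccnb2 and Rrm2, and cycle-low cells have at most 1. The cycling share was 10.8% (400 cells) in H3WT with DMSO, 12.4% (745) in H3WT with 5-Aza, 13.8% (651) in H3R26C with DMSO and 28.2% (2147) in H3R26C with 5-Aza. Deeper cells reach 2 UMIs more easily. After each cell was thinned to 5000 UMIs the shares were 4.61%, 7.81%, 9.03% and 18.3%, in the same order of libraries. The cycling cells were themselves deeper, with medians of 17157 to 28679.5 UMIs against 12106 to 21898.5 in cycle-low cells. This difference in cycling share runs through every comparison of all cells, so each is given beside the same comparison in cycle-low cells. Cycle-low cells were not equally free of cycling. In them 10 mitotic genes outside the gate summed to 7.83, 18.3, 10.7 and 33.2 CPM in the same order of libraries. There 14 S-phase genes summed to 163, 169, 178 and 166 CPM.

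Ezh2, the methyltransferase of dividing cells, followed the cycling cells. In cycle-low cells its level was 18.0 CPM in H3WT with DMSO, 18.8 in H3WT with 5-Aza, 15.7 in H3R26C with DMSO and 17.2 in H3R26C with 5-Aza, and in cycling cells it was 71.6 (66.9 to 76.4), 77.6 (73.0 to 82.5), 74.3 (70.2 to 78.6) and 60.1 (57.7 to 62.6) CPM. Every cycling value lay above every cycle-low value. The ratios were 3.98, 4.13, 4.73 and 3.48. Ezh1, its paralog, had the opposite order, with 46.1, 42.2, 40.5 and 37.7 CPM in cycle-low cells and 31.2, 29.7, 23.97 and 23.6 CPM in cycling cells. The Ezh1 ratios of 0.676 and 0.705 in H3WT stayed short of the 1.5-fold bound, and those of 0.592 and 0.627 in H3R26C passed it. The latter was 0.671 as a mean over cells and 0.680 without the 5% of cells with most UMIs, short of the bound, while median-of-ratios scaling took H3WT with DMSO past it (0.646).

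**Figure D1:**
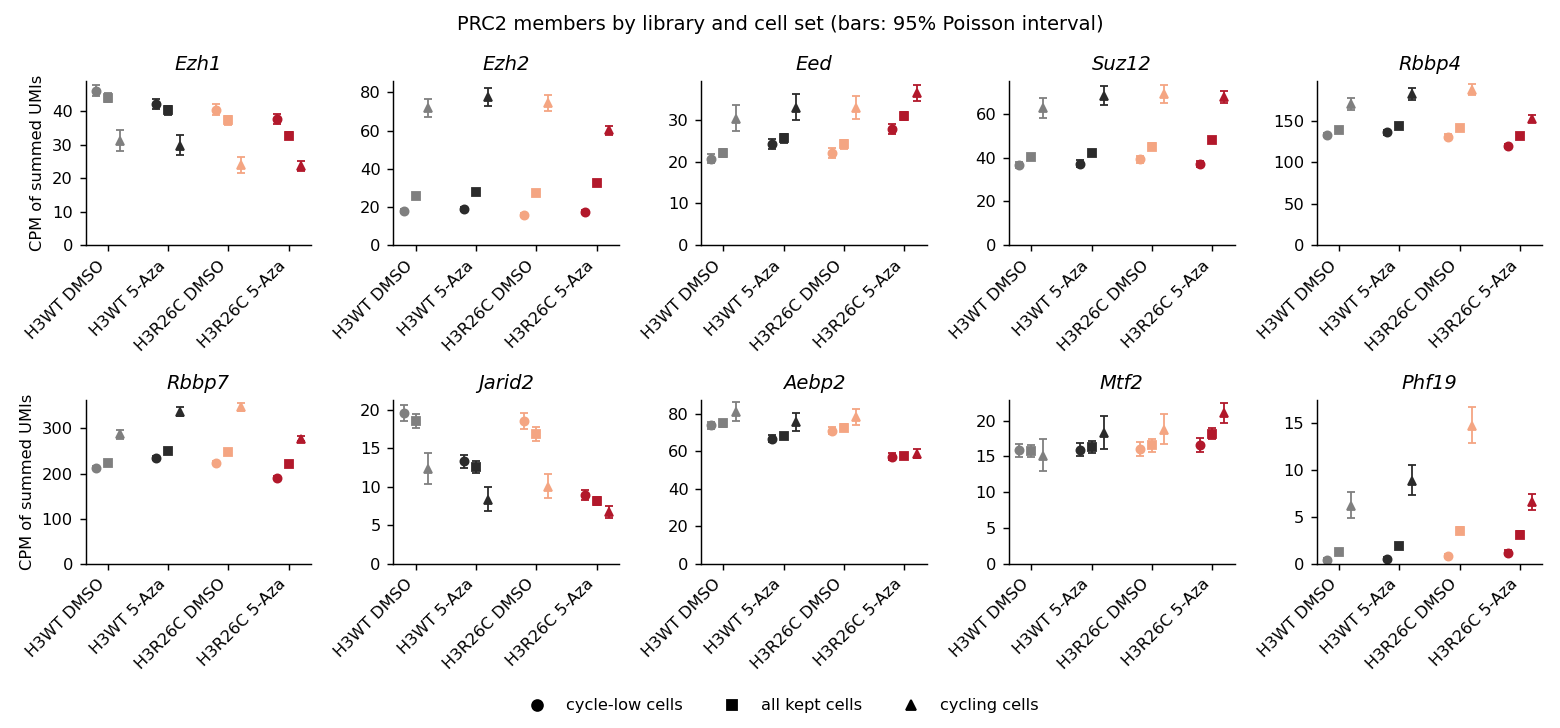
Level of each PRC2 member in CPM (vertical axes, 1 panel a gene) in the 4 libraries, with circles for cycle-low cells, squares for all kept cells, triangles for cycling cells and bars for 95% Poisson intervals. Ezh2, Suz12, Rbbp7 and Phf19 sit highest in cycling cells of every library, Ezh1 and Jarid2 sit lowest there, and Jarid2 is lowest in the H3R26C 5-Aza library.

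The Ezh2 share of the UMIs of both methyltransferase genes gives the same order within 1 measure. It was 28.1% (26.8 to 29.4), 30.8% (29.4 to 32.2), 27.96% (26.5 to 29.4) and 31.4% (29.9 to 32.9) in cycle-low cells of H3WT with DMSO, H3WT with 5-Aza, H3R26C with DMSO and H3R26C with 5-Aza (exact binomial intervals), and 69.7%, 72.3%, 75.6% and 71.8% in cycling cells. Over all cells it ran from 36.8% (35.6 to 38.0) in H3WT with DMSO through 41.1% (39.9 to 42.4) and 42.2% (40.9 to 43.5) to 50.05% (48.9 to 51.2) in H3R26C with 5-Aza. The all-cell shares of H3WT with 5-Aza and H3R26C with DMSO overlapped. With every cell thinned to 5000 UMIs, so that deep cells weigh no more than shallow ones, the all-cell shares were 31.6%, 38.3%, 37.4% and 42.0%. In cycle-low cells each 5-Aza library lay slightly above the DMSO library of the same histone, without overlap of their intervals, and the spread over the 4 libraries was smaller than over all cells. Muscle-like cells, defined below and absent from the DMSO libraries, were part of these sets. Without them the H3WT 5-Aza share was 30.6% (29.2 to 32.0), which overlapped H3WT with DMSO. The H3R26C 5-Aza share was then 30.9% (29.43 to 32.4), narrowly above the DMSO upper bound of 29.42%.

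**Figure D2:**
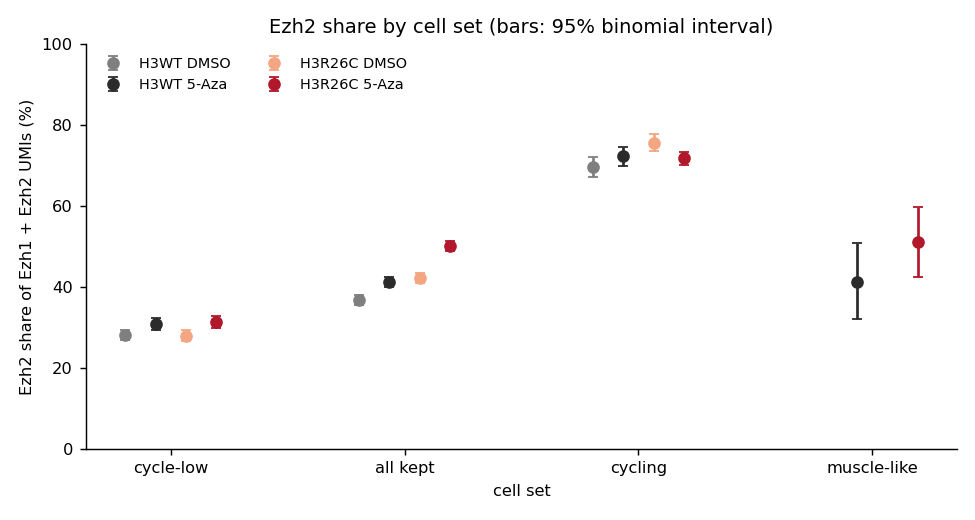
Ezh2 UMIs as a percent of Ezh1 plus Ezh2 UMIs (vertical axis) in each library and cell set, with exact 95% binomial intervals as bars. Cycle-low cells of the 4 libraries lie between 27.96% and 31.4%, cycling cells between 69.7% and 75.6%, and all kept cells between these, highest in H3R26C with 5-Aza at 50.05%.

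Among the core partners, the scaffold Suz12 was 36.7, 37.3, 39.2 and 37.2 CPM in cycle-low cells (library order as above) and 62.6, 68.2, 68.9 and 67.6 CPM in cycling cells, a ratio of 1.71 to 1.83 that was called in all 4 libraries. Without the 5% of cells with most UMIs the Suz12 ratio in H3WT with DMSO was 1.28 and was not called. Eed, the subunit that reads the mark, was 20.7, 24.2, 22.0 and 27.7 CPM in cycle-low cells and 30.2, 32.9, 32.9 and 36.4 CPM in cycling cells, with ratios of 1.31 to 1.49 that stayed under the bound. The histone chaperones were also higher in cycling cells. Rbbp7 had ratios of 1.35, 1.44, 1.55 and 1.45, called in H3R26C with DMSO and not there without the 5% of cells with most UMIs (1.48), and Rbbp4 had 1.28, 1.34, 1.43 and 1.28. Both also serve complexes other than PRC2. Of 17 listed partner genes 3, 3, 2 and 2 were called higher in cycling cells, beside 10.5%, 9.76%, 13.2% and 8.71% of all genes. The CAF-1 subunits Chaf1a and Chaf1b were among them in all 4 libraries. Sap30 was called higher in both H3WT libraries, and Chd3 was called lower in H3R26C with DMSO.

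The accessory factors divided. Phf19 gave few UMIs (109 to 345 a library), of which cycle-low cells, the larger set, held 33, 39, 55 and 83. Its level there was 0.443, 0.550, 0.813 and 1.17 CPM against 6.14, 8.82, 14.7 and 6.56 CPM in cycling cells. Its ratios were 13.9, 16.0, 18.1 and 5.60, and the level rule admitted only the H3R26C DMSO library. Mtf2, found with Phf19 in the same form of the complex, was called in no library. It was 15.9, 15.9, 16.0 and 16.5 CPM in cycle-low cells and 15.1, 18.2, 18.7 and 21.0 CPM in cycling cells. With thinned cells it was called lower in cycling cells of H3WT with DMSO (0.625), where thinning left few UMIs. With all UMIs of these cells counted, the lower level was not seen. H3WT DMSO cells with 2 to 4, 5 to 9 and 10 or more UMIs of the 5 cycle genes after thinning had 16.8, 14.8 and 18.8 CPM of Mtf2. Cells with 0 had 15.8 CPM. Jarid2 was lower in cycling cells, with 12.3, 8.29, 9.98 and 6.71 CPM against 19.6, 13.3, 18.5 and 8.93 CPM. The lower level was called in 3 libraries (0.627, 0.622 and 0.539) and not in H3R26C with 5-Aza (0.752). Without the 5% of cells with most UMIs the Jarid2 ratios of H3WT were 0.697 with DMSO and 0.709 with 5-Aza, and the calls in H3WT were lost. Aebp2, found with Jarid2 in the same form, had ratios of 1.03 to 1.13.

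Counted over the members, 2 were called higher and 1 lower in cycling cells of H3WT with DMSO, where 10.5% of all genes tested were called higher and 3.78% lower. In H3WT with 5-Aza the counts were also 2 and 1, beside 9.76% and 4.78% of all genes. H3R26C with DMSO had 4 higher (Ezh2, Suz12, Rbbp7 and Phf19) and 2 lower (Ezh1 and Jarid2), beside 13.2% and 11.9%. H3R26C with 5-Aza had 2 higher (Ezh2 and Suz12) and 1 lower (Ezh1), beside 8.71% and 7.43%. The median ratio of the 10 members was 1.31, 1.35, 1.46 and 1.30, while the median log2 ratio of all genes tested lay between -0.05 and 0.04.

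The gradient was followed by sorting cells by their UMIs of the 5 cycle genes after thinning, from 0, through 1, 2 to 4 and 5 to 9, to 10 or more. Ezh2 was higher at each step in every library, from 18.3 through 26.1, 64.3 and 113 to 173 CPM in H3WT with DMSO and from 17.8 through 25.2, 51.3 and 82.8 to 93.9 CPM in H3R26C with 5-Aza. The lowest bins of the 4 libraries were close, at 16.3 to 18.6 CPM, but the highest bins were not. There Ezh2 was 173 CPM (155 to 191; 54 cells) in H3WT with DMSO, 138 (126 to 151; 170 cells) in H3WT with 5-Aza, 115 (105 to 126; 153 cells) in H3R26C with DMSO and 93.9 (87.8 to 100; 449 cells) in H3R26C with 5-Aza, with no overlap between neighbouring intervals.

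Suz12 went from 36.4 to 108 CPM between the lowest and highest bin of H3WT with DMSO and from 38.4 to 90.3 CPM in H3R26C with 5-Aza. Rbbp7 went from 213 to 391 and from 192 to 340 CPM in the same libraries, and Rbbp4 from 133 to 241 and from 120 to 183 CPM. In the opposite direction, Ezh1 went from 45.8 to 14.9 CPM in H3WT with DMSO, from 42.2 to 19.4 in H3WT with 5-Aza, from 40.4 to 23.2 in H3R26C with DMSO and from 36.7 to 20.8 in H3R26C with 5-Aza. Its lowest bin was not always the last, since H3R26C with DMSO was at 14.4 CPM in the bin of 5 to 9. Jarid2 went from 19.4 to 7.23 CPM in H3WT with DMSO and only from 8.66 to 6.29 CPM in H3R26C with 5-Aza, and in H3R26C with DMSO it was 7.07, 8.23 and 10.1 CPM over the last 3 bins. At the top of the gradient Jarid2 thus lay within 6.29 to 10.1 CPM in all 4 libraries, whereas at the bottom it spanned 8.66 to 19.4 CPM.

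**Figure D3:**
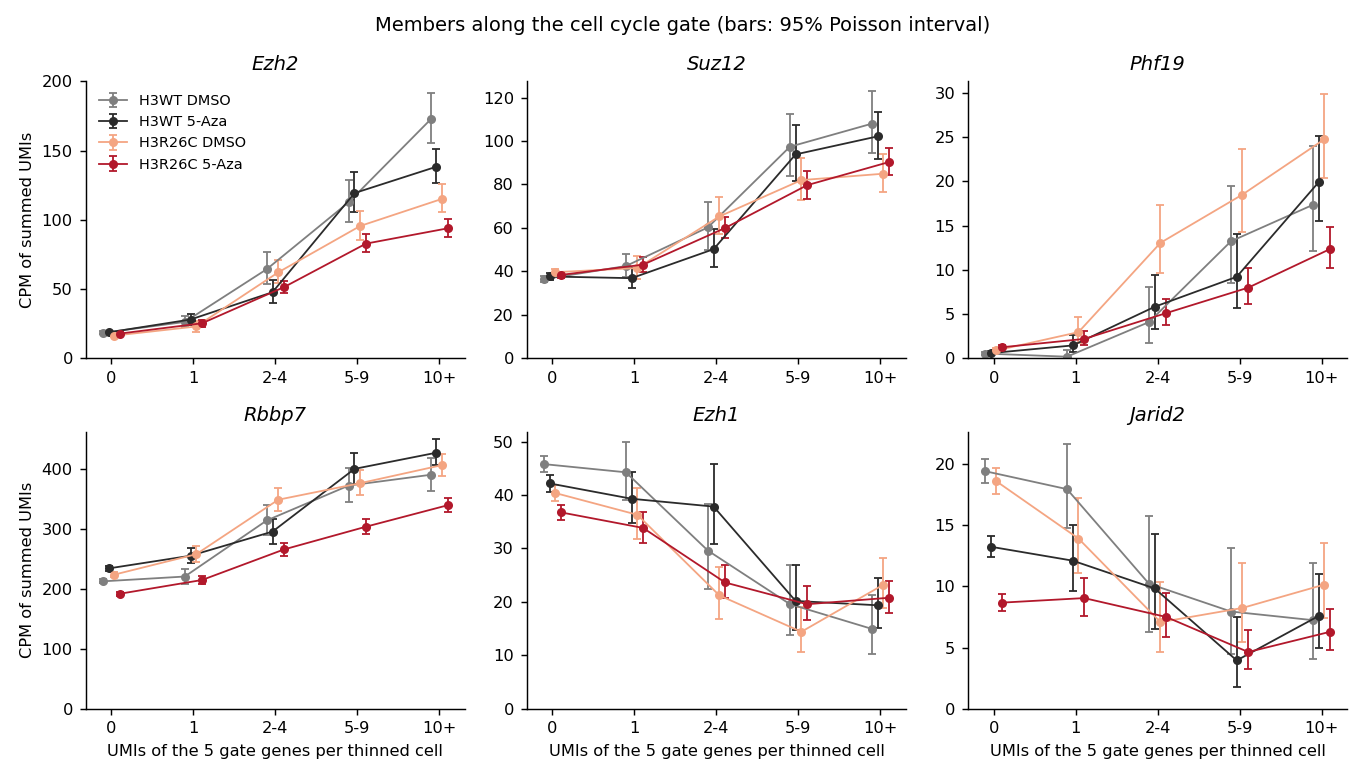
Level in CPM (vertical axes) of Ezh2, Suz12, Phf19, Rbbp7, Ezh1 and Jarid2 in cells sorted by their UMIs of 5 cycle genes after thinning to 5000 UMIs (horizontal axis, 0 to 10 or more), 1 line a library with 95% Poisson intervals. Ezh2, Suz12, Phf19 and Rbbp7 end higher and Ezh1 and Jarid2 end lower than they start in every library, with turns in single bins, and the Ezh2 lines start between 16.3 and 18.6 CPM and end between 93.9 and 173 CPM.

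Within cycling cells, those with relatively more S-phase RNA were set beside those with relatively more mitotic RNA (284 and 116, 441 and 304, 403 and 248, and 1234 and 913 cells in library order, of which 24, 50, 33 and 145 lay within 1.25-fold of the cut). The ratio of the Ezh2 level in S-leaning to that in mitosis-leaning cells was 0.590 (0.515 to 0.676), 0.724 (0.640 to 0.819), 0.870 (0.776 to 0.977) and 0.937 (0.864 to 1.02). Ezh2 was therefore lower in S-leaning cells of 3 libraries by more than counting error, and not in H3R26C with 5-Aza. Phf19 had ratios of 0.407, 0.496, 0.544 and 0.544, with all 4 intervals under 1. Rbbp4 was on the other side, with 1.06, 1.17, 1.20 and 1.37, the last 3 with intervals above 1. In H3WT with DMSO the S-phase genes summed to 163 CPM in cycle-low and 1106 CPM in cycling cells. The mitotic genes summed to 7.83 and 1174.5 CPM there. Weakly cycling cells may thus lean to S, and phase was not separated from the strength of cycling.

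Over 22 sums of cells (5 bins in each library and the muscle-like cells of both 5-Aza libraries), 6554 genes whose mean reached 20 CPM were ranked by the correlation of their log2 levels with Ezh2. The nearest were Usp1 (r = 0.991), Alyref (0.990), Ncapg2 (0.989), Dnajc9 (0.989) and Mastl (0.987), and the members stood at 0.971 for Suz12, 0.955 for Rbbp7, 0.928 for Phf19, 0.871 for Rbbp4, 0.809 for Eed, 0.632 for Aebp2, 0.459 for Mtf2, -0.661 for Ezh1 and -0.718 for Jarid2. Igf1 (0.948), Golgb1 (0.935), Xpa (0.922), Anpep (0.918) and Atf7 (0.916) were nearest to Ezh1. The bins were sorted by cycle genes, so genes that follow cycling correlate with Ezh2 here through the sorting itself. How many of the 6554 genes reach such values is not given. Sums from the same library also share their depth and preparation, so these correlations are descriptions of the order of the sums.

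Between the histones in vehicle, the 9 members with enough RNA differed little in the sums of all cells. Ezh1 was 44.0 CPM (42.6 to 45.4) in all H3WT cells with DMSO and 37.3 (36.0 to 38.6) in H3R26C, a ratio of 0.847 (0.808 to 0.888) that was 0.878 in cycle-low cells. Ezh2 was 25.6 (24.6 to 26.7) and 27.2 (26.1 to 28.3) CPM, a ratio of 1.06 (1.0002 to 1.13), but in cycle-low cells the ratio was 0.874 (0.805 to 0.948), so the direction depended on the cells counted. Ezh2 ratios were 0.907, 0.812 and 1.63 in cells of 5000 to 10000, 10000 to 20000 and 20000 or more UMIs. These ranges were chosen after the values were seen, and the last ratio passed the bound. The other ratios in all cells were 1.10 for Eed, 1.11 for Suz12, 1.03 for Rbbp4, 1.11 for Rbbp7, 0.909 for Jarid2, 0.967 for Aebp2 and 1.05 for Mtf2. None of the 9 members with enough RNA was called, in all cells or in cycle-low cells, where 6.63% and 5.14% of all genes tested were. Phf19, under the level rule, was 1.25 and 3.53 CPM in all cells, a ratio of 2.82 (2.25 to 3.54), and 0.443 and 0.813 CPM in cycle-low cells, a ratio of 1.84 (1.17 to 2.92).

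After 5-Aza, Jarid2 was the single member called between the histones. Its level in all cells was 12.5 CPM (11.8 to 13.3; 1057 UMIs) in H3WT and 8.13 CPM (7.61 to 8.68; 900 UMIs) in H3R26C, a ratio of 0.649 (0.593 to 0.710), and 13.3 and 8.93 CPM in cycle-low cells, a ratio of 0.6697 (0.605 to 0.741) just short of the bound. The count was thus 1 of 9 in all cells, where 18.0% of all genes were called, and 0 of 9 in cycle-low cells, where 15.6% were. Eed was higher in H3R26C at 30.9 against 25.5 CPM (1.21), and remained so in cycle-low cells (1.15). Suz12 (1.14) and Ezh2 (1.16, 1.10 to 1.23) were higher over all cells, and in cycle-low cells stood at 0.998 and 0.918 (0.849 to 0.993). Aebp2 (0.846 and 0.856), Rbbp4 (0.915 and 0.877) and Rbbp7 (0.886 and 0.814) were lower in H3R26C in both sets of cells, and Ezh1 was 0.811 and 0.894.

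The 5-Aza libraries were then set against the DMSO library of the same histone. Jarid2 went from 18.5 CPM (17.7 to 19.5; 1611 UMIs) to 12.5 CPM in H3WT, a ratio of 0.676 (0.625 to 0.731), and from 16.9 CPM (16.0 to 17.8; 1417 UMIs) to 8.13 CPM in H3R26C, a ratio of 0.482 (0.443 to 0.525). The intervals of the DMSO libraries touched each other, and both 5-Aza libraries lay below them and apart from each other. In cycle-low cells the ratios were 0.681 (0.626 to 0.739) and 0.482 (0.437 to 0.531). Only the H3R26C ratios passed the bound, so 0 of 9 members were called in H3WT and 1 of 9 in H3R26C, in all cells and in cycle-low cells alike. Among all genes tested 7.48% and 21.8% were called in all cells of H3WT and H3R26C, and 7.21% and 21.1% in cycle-low cells.

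The lower Jarid2 level after 5-Aza was present in cells of every depth range. Within cells of 5000 to 10000 UMIs, of 10000 to 20000 and of 20000 or more, the ratio of 5-Aza to DMSO was 0.479, 0.608 and 0.587 in H3WT and 0.468, 0.443 and 0.483 in H3R26C, so that within each depth range H3WT passed the bound as well. Between the histones after 5-Aza it was 0.739, 0.635 and 0.661 in the same ranges. These ranges were chosen after the values were seen.

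Phf19, under the level rule, had a 5-Aza ratio of 1.48 in H3WT and 0.882 in H3R26C over all cells. Over all cells the other 8 members moved by less than Jarid2. In H3WT their 5-Aza ratios in all cells ran from 0.911 for Aebp2 to 1.16 for Eed, with Ezh2 at 1.10 (1.04 to 1.16) and at 1.04 (0.967 to 1.13) in cycle-low cells. In H3R26C, Eed went from 24.1 to 30.9 CPM, a ratio of 1.28 (1.21 to 1.35) in all cells and 1.26 (1.18 to 1.35) in cycle-low cells. Aebp2 went from 72.6 to 57.8 CPM, at 0.797 (0.769 to 0.825) and 0.805. Ezh2 went from 27.2 to 32.7 CPM (31.6 to 33.8), at 1.20 (1.14 to 1.27), and at 1.10 (1.01 to 1.19) in cycle-low cells. Within the 3 depth ranges used for Jarid2 some 5-Aza ratios were larger. From shallow to deep cells, Ezh2 was 1.03, 1.22 and 1.59 in H3WT and 1.05, 1.68 and 1.11 in H3R26C. Eed was 1.74, 1.30 and 1.23 in H3R26C, and Ezh1 was 0.676, 0.843 and 0.745 in H3WT. Rbbp7 went opposite ways in the 2 histones, at 1.12 in H3WT and 0.896 in H3R26C. Rbbp4 was at 1.04 and 0.925, and in cycle-low cells its H3WT ratio of 1.02 (0.995 to 1.05) included 1. The median ratio of the 10 members over all cells was 1.06 and 1.01 between the histones in vehicle and after 5-Aza, and 1.04 and 0.911 for 5-Aza in H3WT and H3R26C, while the median log2 ratio of all genes tested lay between -0.05 and 0.04.

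**Figure D4:**
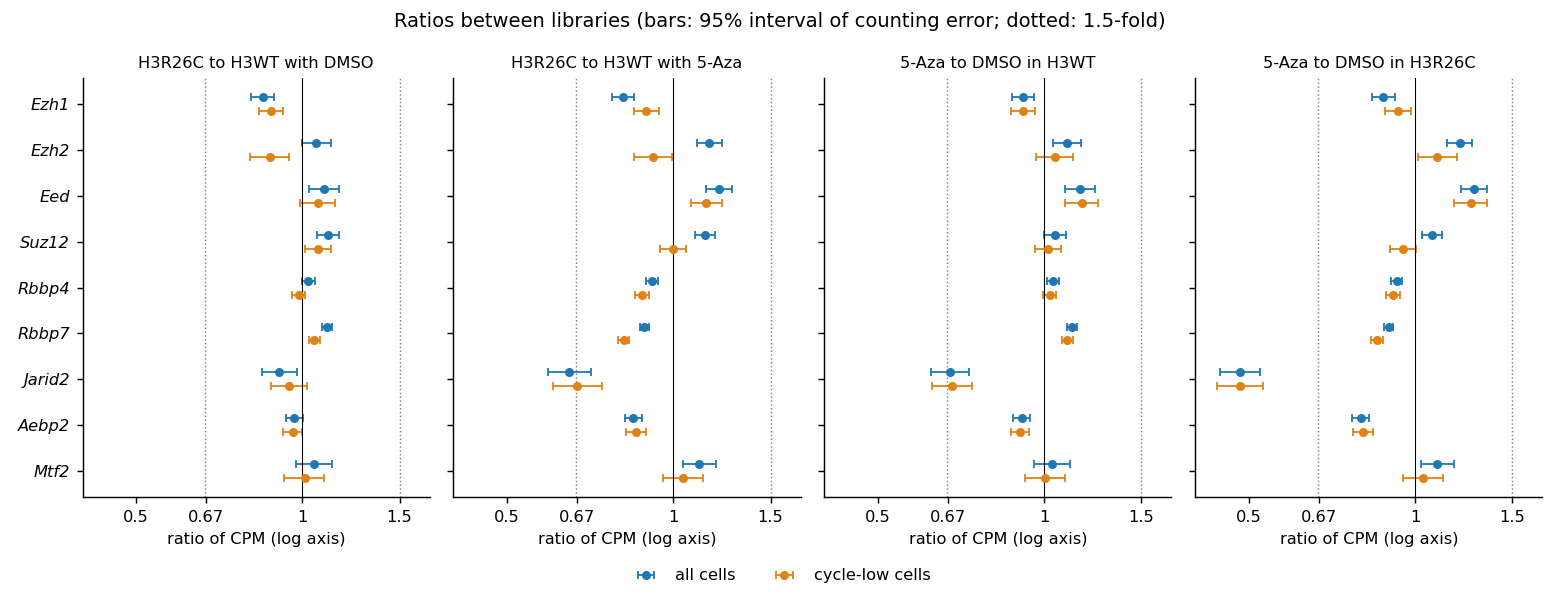
Ratio of levels (horizontal log axes) for 9 members in the 4 comparisons between libraries, in all kept cells (blue) and cycle-low cells (orange), with 95% intervals and dotted lines at 1.5-fold. Jarid2 lies to the left in both 5-Aza comparisons and in H3R26C against H3WT with 5-Aza, and Ezh2 crosses from the right to the left of 1 in both histone comparisons when only cycle-low cells are counted.

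Cycle genes outside the gate moved beside Ezh2 in these comparisons of all cells. Of 10 mitotic genes 9 and 10 were called higher in H3R26C with DMSO and with 5-Aza, and 10 and 9 were called higher with 5-Aza in H3WT and H3R26C. Of the S-phase genes 3 of 12 tested, 6 of 14, 0 of 12 and 1 of 14 were called higher in the same order. Of all genes tested 6.63%, 18.0%, 7.48% and 21.8% were called in either direction. Averaging the 5 cycle bins of each library with the same weights gave the ratios at an equal cycling make-up. Ezh2 then went from 1.06 to 0.842 between the histones in vehicle, from 1.16 to 0.874 after 5-Aza, from 1.10 to 0.954 for 5-Aza in H3WT and from 1.20 to 0.990 for 5-Aza in H3R26C. With cycling and cycle-low cells by unthinned UMIs in place of the 5 thinned bins, the first was 0.9505 and the third turned direction to 1.06. Suz12 went from 1.14 to 1.02 between the histones after 5-Aza and from 1.07 to 0.979 for 5-Aza in H3R26C. Jarid2 barely moved, from 0.649 to 0.677 between the histones after 5-Aza and from 0.482 to 0.497 for 5-Aza in H3R26C, and Eed kept 1.15 and 1.24 in these comparisons.

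Muscle-like cells had at least 1% of their UMIs in 27 sarcomeric genes. There were 170 (2.84% of kept cells) in H3WT with 5-Aza and 229 (3.01%) in H3R26C with 5-Aza, and 0 in both DMSO libraries, which allows up to 0.0809% and 0.0635%. Of 10 muscle markers outside the sarcomeric list all were detected, and summed to 5123 and 5304 CPM against 89.7 and 134 CPM in the cycle-low cells below 1%, whereas 8 progenitor markers summed to 3316 and 2700 against 12367 and 13595 CPM. In H3WT 31 and in H3R26C 38 of the muscle-like cells lay between 1% and 2%, and 62 and 89 cells lay between 0.5% and 1%, just outside.

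In these cells Ezh1 was low. It was 25.7 CPM (19.9 to 32.6; 67 UMIs) against 42.6 CPM in the cycle-low cells below 1% of H3WT with 5-Aza, a ratio of 0.603 (0.466 to 0.768), and 14.2 CPM (11.0 to 18.1; 66 UMIs) against 38.9 CPM in H3R26C, a ratio of 0.366 (0.282 to 0.467). Both were called, and the muscle-like levels of the libraries did not overlap. The H3WT call of Ezh1 was lost with muscle-like cells taken at 5% sarcomeric RNA (0.677) or restricted to cycle-low cells (0.683). Of the muscle-like cells 147 of 170 in H3WT and 183 of 229 in H3R26C were cycle-low. Those of H3R26C were deep, with a median of 18389 UMIs against 12106 in cycle-low cells. Ezh1 in that library was 48.2, 35.0 and 21.1 CPM in cells of 5000 to 10000, 10000 to 20000 and 20000 or more UMIs. Whether depth accounts for the Ezh1 difference was not tested. The median gene was itself lower in muscle-like cells, at a log2 ratio of -0.21 and -0.28. Ezh1 was -0.73 and -1.45 on that scale, and -0.52 and -1.17 relative to the median gene. Ezh2 was 18.0 against 18.8 CPM and 14.9 against 17.4 CPM, ratios of 0.958 (0.701 to 1.28) and 0.855 (0.661 to 1.09) that include 1. The Ezh2 share of the pair was thereby 41.2% (32.1 to 50.8) in H3WT and 51.1% (42.4 to 59.8) in H3R26C, against 30.6% and 30.9% in the cycle-low cells below 1%, with no overlap of the intervals in H3R26C and a narrow gap in H3WT (32.0% is the upper bound there). These sets are not alike, since the muscle-like cells include cycling cells and the others do not. In all cycling cells of these libraries the share was 72.3% and 71.8%. The share in cycle-low muscle-like cells alone is not given here, so the gap is not shown for like cells. In thinned cells the H3R26C muscle-like share was 33.3%, against 30.1% in thinned cycle-low cells. Ezh2 itself was then 10.6 against 17.3 CPM in H3R26C, a ratio of 0.612 that was called lower. Thinning left few UMIs of either gene in muscle-like cells. These thinned values are given without an interval and do not settle whether the share differs.

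Mtf2 was higher in H3WT, at 25.3 against 15.5 CPM (1.63, 1.25 to 2.09). In H3R26C it was 13.8 against 16.7 CPM (0.827, 0.633 to 1.06), a ratio that includes 1 and is 0.01 on the log2 scale relative to the median gene. With muscle-like cells taken at 5% sarcomeric RNA it was called lower in H3R26C (10.1 against 16.7 CPM, 0.607). Rbbp4 was 183 against 135 CPM (1.36, 1.24 to 1.49) and 135 against 119 CPM (1.14, 1.05 to 1.24). Jarid2 was 11.1 against 13.4 and 11.4 against 8.81 CPM, with a ratio of 1.30 (0.960 to 1.72) in H3R26C. Suz12 was 0.763 (0.598 to 0.960) and 1.07, Eed 1.05 and 0.994, Rbbp7 0.926 and 0.914, and Aebp2 1.07 and 0.864. With muscle-like cells restricted to cycle-low ones, Suz12 in H3WT was 24.2 against 37.7 CPM, a ratio of 0.643 that was called lower. Phf19 rested on 2 and 7 UMIs. Relative to the median gene, Ezh1, Suz12 and Jarid2 were the members below 0 on the log2 scale in H3WT, and Ezh1 alone in H3R26C, so the ratios under 1 of Ezh2, Rbbp7 and, in H3R26C, Eed, Aebp2 and Mtf2 turn direction on that scale.

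In H3WT 1 of 9 members was called higher (Mtf2) and 1 lower (Ezh1) in muscle-like cells, beside 16.9% and 30.3% of all genes. The Mtf2 call was lost under a looser cell filter of 1000 UMIs and 500 genes (1.20). In H3R26C none was called higher and 1 lower (Ezh1), beside 13.9% and 33.7%. The median member ratio was 1.002 and 0.953.

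**Figure D5:**
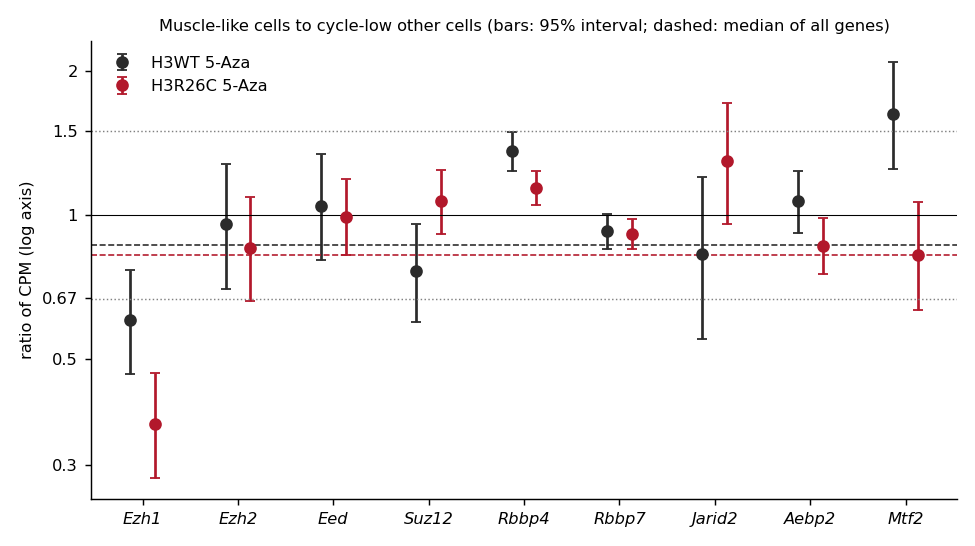
Ratio of the level in muscle-like cells to that in cycle-low cells below 1% sarcomeric RNA (log axis) for 9 members in both 5-Aza libraries, with 95% intervals, a dashed line at the median of all genes and dotted lines at 1.5-fold. Ezh1 lies lowest in both, at 0.603 in H3WT and 0.366 in H3R26C, and Mtf2 passes the upper line in H3WT alone.

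Gates on single genes, added after the first results, gave a further view of the members, with cells counted as high at 5 or more UMIs of 1 gene after thinning. The study uses Spp1 and Enpp2 as lineage markers, and its text does not name Igfbp5 or Eln. Gates on Ifi27l2a, Tmem176b and adipocyte markers were also run and are not reported here. Spp1, an early mesenchymal lineage gene, stood at 275, 847, 476 and 4905 CPM in the libraries, and Spp1-high cells numbered 267, 1381, 599 and 5409. Jarid2 was lower in them, with 12.8, 10.1, 10.0 and 7.27 CPM against 19.1, 13.4, 18.1 and 10.4 CPM in the remaining cells, ratios of 0.672, 0.756, 0.553 and 0.696. In cycle-low cells alone these ratios were 0.742, 0.813, 0.789 and 0.688. The remaining cells by themselves kept Jarid2 lowest in H3R26C with 5-Aza and next lowest in H3WT with 5-Aza. Cells high in Igfbp5 had Jarid2 ratios of 1.41, 1.28, 1.28 and 1.35 and Ezh1 ratios of 1.29, 1.13, 1.20 and 1.20. Cells high in Eln, the elastin gene, had Ezh1 ratios of 0.665, 0.791, 0.791 and 0.723. Cells high in Enpp2, an adipogenic gene, numbered 140, 135 and 590 in H3WT with 5-Aza, H3R26C with DMSO and H3R26C with 5-Aza, and their Ezh1 ratios were 1.45, 1.65 and 1.52. Whether these cell groups account for the differences between libraries was not tested.

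The remaining genes of the Polycomb system were read as lists set by function. Of 21 genes of PRC1, the complex that binds the PRC2 mark and ubiquitinates histone H2A, none of 20 tested was called between the histones in vehicle or for 5-Aza in H3WT. Of all genes 6.63% and 7.48% were called there. Between the histones after 5-Aza 1 was higher (Pcgf5, 25.3 against 13.3 CPM, 1.90) and 1 lower (Bmi1, 24.6 against 40.9 CPM, 0.602), beside 18.0% of all genes called in either direction. For 5-Aza in H3R26C 1 of 21 was higher (Pcgf5, 1.85) and 6 were lower, namely Bmi1 (0.638), Cbx6 (75.2 against 148 CPM, 0.509), Cbx7 (0.663), Phc1 (0.636), Kdm2b (0.657) and Bcor (0.628), with a list median of 0.892, beside 21.8% of all genes called in either direction. In cycle-low cells 5 of these 6, without Cbx7, were lower, beside 21.1% of all genes called in either direction.

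In muscle-like cells 2 PRC1 genes were higher and 7 lower of 19 tested in H3WT, and 3 higher and 9 lower of 19 in H3R26C, beside the 16.9% and 30.3% and the 13.9% and 33.7% of all genes given above for these cells. Cbx6 (0.289 and 0.315) and Cbx8 (0.376 and 0.537) were among those lower in both, and Pcgf5 (2.79 and 1.97) was higher in both. Of the H3K27 demethylases, Kdm6a was called in none of the comparisons, while Kdm6b was 60.3, 38.9, 50.2 and 26.4 CPM in library order, ratios of 0.646 for 5-Aza in H3WT and 0.525 in H3R26C, and 0.650 and 0.535 in cycle-low cells. Of the 17 genes of other complexes that use Rbbp4 or Rbbp7, at most 1 was called in any comparison of all cells between libraries and 0 of 16 tested in any comparison of cycle-low cells, and none of 3 H2A deubiquitinase genes (Bap1, Asxl1 and Asxl2) was called between libraries. Between libraries 6.63% to 21.8% of all genes were called in all cells, and 5.14% to 21.1% in cycle-low cells. Among 3 other PRC2 partners with enough RNA, Lcorl was higher in cycling cells of all 4 libraries (1.77, 2.00, 1.94 and 1.60), and Phf1, the third gene of the Mtf2 and Phf19 family, was lower in cycling cells of both 5-Aza libraries (0.578 in H3WT and 0.564 in H3R26C). Of all genes tested 8.71% to 13.2% were called higher and 3.78% to 11.9% lower in cycling cells. Lcorl was also called higher for 5-Aza in H3R26C, in all cells and in cycle-low cells. In muscle-like cells Lcor and Lcorl were called higher in H3WT, and of these partners Lcor alone in H3R26C. The shares of all genes called in those comparisons are given above.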

How the data were processed

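C3H10T1/2 cells were profiled with the 10x Genomics 3' droplet assay, and the authors deposited 1 filtered matrix of whole-number UMI counts a library, made with Cell Ranger 6.1.0 (per the file headers) on the mm10 mouse reference of 10x Genomics (GRCm38). The counts are deposited without normalization, so library depth differs. Here barcodes were filtered as the study states, UMIs were summed over cells and divided by the total (CPM). Levels have exact Poisson intervals and ratios conditional binomial intervals, at 95% and for counting error only. No model was fitted, since each condition has 1 library and cells are not replicates. No doublet caller was run, and instead the 5% of cells with most UMIs were left out as an alternative. The members, lists and cell gates were chosen with earlier results of these data known. Of each list the text names up to 4 called genes with the largest ratios, and of the PRC1, S-phase and partner genes any others named were chosen after their values were seen. Other scalings used median-of-ratios size factors and TMM (edgeR 4.0.16, R 4.3.3), and other alternatives changed filters, gates, pseudocount, level minimum and depth. Scripts ran in Python 3.11.15 with numpy 2.4.6, scipy 1.17.1 and pandas 2.3.3, and were tested on simulated data. Transcript ends were searched for near-identical copies of members (95% identity over 90 bases, BLAST 2.17.0) and none was found. The assay's count is of transcript ends, so isoforms were not told apart.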

Additional observations from a re-analysis of the deposited data

Results flagged for a closer look

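In all cells both histone chaperones were higher with 5-Aza in H3WT, Rbbp4 only slightly, and lower with 5-Aza in H3R26C. With 1 library for each condition this difference was not tested. In all cells the ratio of the H3R26C to the H3WT response was 0.798 for Rbbp7 (1.12 in H3WT and 0.896 in H3R26C) and 0.892 for Rbbp4 (1.04 and 0.925). In cycle-low cells it was 0.774 for Rbbp7 (1.10 and 0.853). For Rbbp4 the cycle-low H3WT ratio was 1.02 (0.995 to 1.05), which includes 1. Its all-cell H3WT ratio was 0.05 on the log2 scale, and TMM scaling shifted that comparison by -0.06.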

How the results depend on the processing

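No paired analysis was possible because replicate numbers are absent from the labels and no condition was sampled more than once. In all cells 0, 1, 0 and 1 members passed 1.5-fold for H3R26C to H3WT with DMSO, H3R26C to H3WT with 5-Aza, 5-Aza in H3WT and 5-Aza in H3R26C, and in cycle-low cells 0, 0, 0 and 1. With no minimum level the first was 1 in both sets of cells (Phf19). The second became 0 in all cells with a pseudocount of 1 CPM, a minimum of 20 CPM, the mean of per-cell CPM or the looser cell filter (1000 UMIs, 500 genes) and 2 with no minimum, and in cycle-low cells 1 with no minimum, the stricter filter (10000 UMIs, 2500 genes, 10% mitochondrial) or thinned cells. For 5-Aza in H3WT it became 1 with median-of-ratios or TMM scaling in both sets of cells and 1 with per-cell means or the stricter filter in all cells. For 5-Aza in H3R26C it became 0 in both with a minimum of 20 CPM, which Jarid2 does not reach. In muscle-like cells of H3WT the count of 2 held other members under some settings. Mtf2 was lost and Jarid2 gained (0.630, lower) under the looser filter. Ezh1 was lost at 5% sarcomeric RNA, where Rbbp4 was gained (1.57, higher), and in cycle-low cells, where Suz12 was gained (0.643, lower). The stricter filter added Jarid2 (0.555, lower) and removed neither Mtf2 nor Ezh1. In muscle-like cells of H3R26C the count of 1 became 2 with median-of-ratios scaling or per-cell means (Jarid2 higher). It also became 2 with thinned cells (Ezh2 lower) or a bound of 5% sarcomeric RNA (Mtf2 lower). In cycling cells the counts of 3, 3, 6 and 3 became 1 in H3WT with DMSO without the 5% of cells with most UMIs (Suz12 and Jarid2 lost, Jarid2 also in H3WT with 5-Aza), 7 and 7 in the H3WT libraries with thinned cells, and 7, 8 and 6 in H3WT with DMSO, H3WT with 5-Aza and H3R26C with 5-Aza when 5 or more gate UMIs were set against 0. In H3R26C with DMSO the last setting added Eed (1.62) and Rbbp4 (1.58). The share of all genes called was not taken under these settings, so these counts have no background beside them. The all-cell Ezh2 share was 31.6%, 38.3%, 37.4% and 42.0% in thinned cells, 53.3% in H3R26C with 5-Aza under the stricter filter, and 33.3% in its thinned muscle-like cells. The Jarid2 ratio between the histones after 5-Aza, split by depth after seeing the data, was 0.739 in cells below 10000 UMIs. No setting turned a call to the other direction. Scaling moved the median gene by over 0.1 on the log2 scale only in muscle-like cells of H3R26C, by 0.23 with median-of-ratios and 0.19 with TMM. The UMIs of Phf19 and of the muscle-like cells are few, and the causes of these moves were not tested.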
